A study of Bos taurus with 12 samples.

Results

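The loci described here are the CpG sites and tiles that the authors' annotation placed inside an intron of a gene on a cattle autosome. They were chosen by 3 annotation entries alone, namely a chromosome from 1 to 29, a closest feature of the type intron and a position within it, and not by any methylation value. They number 3435 of the 25020 loci listed in 2 deposited tables. Of these, 2752 are single CpG sites (of 17730) and 683 are tiles (of 7290), a tile being a window of 500 bp whose start lies on a 100 bp grid, so that neighbouring tiles overlap and share CpG sites.

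The tables come from 12 sperm samples of cattle (Bos taurus), with 6 samples in the low daughter fertility group and 6 in the high daughter fertility group, a name that refers to the daughters a bull has sired. The labels give no breed, age, treatment or batch for either group, and do not say whether each sample is 1 bull. DNA was read by enzymatic methylation sequencing, in which enzymes in place of bisulfite mark the unmethylated cytosines. Each table sets these groups against each other as the authors did, with 1 methylation difference in percentage points, 1 p-value and 1 q-value (a p-value adjusted for the number of loci) per locus, on the genome build ARS-UCD1.2. No value per sample lay behind the numbers used here, so the depth of each sample is unknown and a difference carries no measure of how samples of a group varied. The headers and labels do not say which group was subtracted, and a positive or negative difference below is the sign as listed, assigned to neither group. A locus was called where the authors' q lay below 0.05 and the difference reached 10 points in either direction.

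Introns are the stretches of a gene that are transcribed and then spliced out of the message. In most vertebrate cells, mature sperm among them, the bodies of genes are largely methylated at CpG dinucleotides, and unmethylated DNA is concentrated at CpG islands and promoters. An intron can also hold enhancers, alternative promoters, transposable elements and whole small genes, so an intronic position does not by itself tie a locus to the gene that surrounds it. Sperm nuclei are compacted with protamines and are transcriptionally silent, and no expression was measured.

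The intronic sites were spread thinly over many genes. They lay in 1996 annotated introns of 1557 genes on 23 chromosomes, and 1488 of these genes carried a full name in the authors' annotation. The introns were between 93 and 849708 bp long with a median of 13196 bp, and the median site lay 2726 bp from the nearer intron end. For every one of the 2752 sites the distance that the authors list is this distance to the nearer intron end. Most genes contributed little, with 1070 genes at 1 site, 57 at 5 or more and 16 at 10 or more.

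Most intronic sites differed little between the groups. The authors' deposited table lists 1446 sites as negative, 1147 as positive and 159 as exactly 0, with a median of -0.21 points beside -0.71 over all autosomal sites. In that listing 78.0% of intronic sites lay within 5 points of 0, against 68.3% of the other autosomal sites. The median absolute difference was 2.33 points in introns and 2.93 points elsewhere on autosomes, from the authors' deposited table. Intronic sites were therefore a list of mostly small differences with a few large ones at both ends.

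A total of 95 intronic sites (3.45%) were called in the authors' deposited table, where 4.48% of all autosomal sites were. Among them 56 were negative and 39 positive, while the autosomal shares were 3.07% negative and 1.41% positive. The negative share of the called intronic sites was 58.9% (exact 95% binomial interval 48.4 to 68.9%, which treats neighbouring sites as independent), and that of the 510 other called autosomal sites was 70.4%. These shares were set side by side without a test, since loci are not replicates. By q alone, 145 intronic sites (5.27%, against 6.06% of autosomal sites) were below 0.05 in the authors' deposited table. Another 96 intronic sites differed by 10 points or more without reaching that q. The called sites had a median absolute difference of 20.6 points, 49 of them reached 20 points and 14 reached 30 points.

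**Figure D1:**
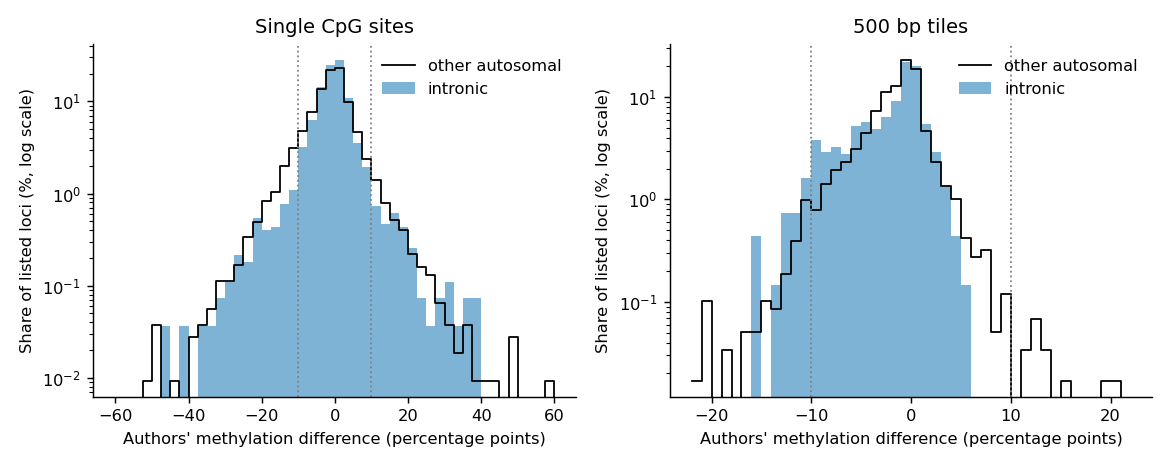
Distribution of the authors' methylation differences (percentage points, horizontal axis) over intronic loci (bars) and other autosomal loci (black line), as a share of listed loci on a log scale, for sites on the left and tiles on the right. Dotted lines mark 10 points; intronic sites reach from -46.1 to 39.3 points and intronic tiles from -15.1 to 5.12 points.

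The site with the lowest difference lay in fibrillin 2 (ENSBTAG00000015307), a glycoprotein of extracellular microfibrils. The authors' deposited table gave it -46.1 points (q = 8.78e-08), 4893 bp from the end of an intron of 31389 bp, and it was the only listed intronic site of this gene. Phosphatase and actin regulator 2, which binds actin and protein phosphatase 1, also had a single site, listed by the authors' deposited table at -40.0 points in an intron of 117678 bp. In CFAP20 domain containing the authors' deposited table gave -33.6 points at 1 site and 1.02 points at the other. The large difference in that gene was thus not shared by its other listed intronic site.

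The other genes with large negative sites likewise had 1 listed site, or smaller values at the rest. Pregnancy-associated glycoprotein 14, of a family of aspartic-protease-like proteins made by the ruminant trophoblast, had 1 listed site, for which the authors' deposited table gave -31.3 points and q = 0.00156. Sortilin related VPS10 domain containing receptor 3, a sorting receptor of neurons, was given -29.8 points at 1 site and -4.65 and 2.30 points at the others by the authors' deposited table. Dachsous cadherin-related 2, a large cadherin, had 4 sites from -28.3 to 0 points there, with a median of -5.92 points in the authors' deposited table. Single sites were listed for HERV-H LTR-associating 2, an immune checkpoint ligand, at -27.0 points, and for phospholipase A2 group IVE at -26.2 points (authors' deposited table). Protein kinase cGMP-dependent 1, a kinase that cyclic GMP activates, had -26.1 and 0.47 points at its 2 sites in the authors' deposited table. EGF containing fibulin extracellular matrix protein 1, a matrix glycoprotein, had 1 site, for which the authors' deposited table gave -25.4 points.

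At the positive end, contactin 3, otogelin like and ubiquitin like modifier activating enzyme 6 each had a single listed intronic site. The authors' deposited table put these at 39.3, 38.9 and 37.2 points. Contactin 3 is a neuronal adhesion molecule, otogelin like a protein of the acellular membranes of the inner ear, and the modifier activating enzyme an E1 enzyme that starts ubiquitin transfer. ATP binding cassette subfamily G member 8, part of a sterol transporter, had 36.9 points at 1 of its 3 sites and values between -0.072 and 0.22 points at the others in the authors' deposited table. Parkin RBR E3 ubiquitin protein ligase, which marks damaged mitochondria, had 5 sites with a median of 2.71 points and a highest value of 32.0 points in the authors' deposited table. Basonuclin 2, a zinc finger protein, had 4 sites with a median of 1.91 and a highest value of 31.1 points in the authors' deposited table. Further single large values were those of tumor protein p63 regulated 1 (30.2 points), protein tyrosine phosphatase receptor type M (27.5 points), hemogen, a regulator of blood cell formation (27.1 points), poly(A)-specific ribonuclease (23.6 points) and collagen type XIV alpha 1 chain (23.5 points) in the authors' deposited table. Of these, the tyrosine phosphatase had 4 listed sites whose median was -0.28 points in the authors' deposited table. In tumor protein p63 regulated 1, another listed site of the same intron, within 500 bp, stood at -5.56 points and was not called (authors' deposited table).

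Most called sites had no other listed site close by. No other listed site lay within 500 bp of 61 of the 95 called sites (64.2%). Of the 34 with neighbours, 23 had most of them on the same side of 0, and 13 had another called site within that distance. Only 12 called sites fell inside a listed tile, 11 of them with every such tile of the same sign and 1 with a called tile. The other 83 lay outside every listed tile. The same shares over all intronic sites were not taken. As 1070 of the 1557 genes had 1 listed intronic site, these counts were not read as a trait of called sites. The 6 called sites of OTU deubiquitinase 7A, a gene described below, neighbour one another and count in the 23, the 13, the 12 and the 11.

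Calls of both signs were found up to 20000 bp from an intron end, and almost all calls beyond that distance were negative. Within 1000 bp of an intron end, 12 of 30 called sites were negative in the authors' deposited table. Between 1000 and 20000 bp the count was 30 of 50, made up of 15 of 21 up to 5000 bp and 15 of 29 past it. The negative share thus did not rise evenly with distance. Beyond 20000 bp 14 of 15 called sites were negative. In this last range 6 belong to OTU deubiquitinase 7A, and without that gene 8 of 9 called sites, in 9 genes, were negative. Over all listed sites, called or not, the negative share moved less, from 53.5% to 55.9% and 60.9% of the sites with a difference other than 0 in the authors' deposited table. The distance ranges were chosen with these values known, and no test was run.

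**Figure D2:**
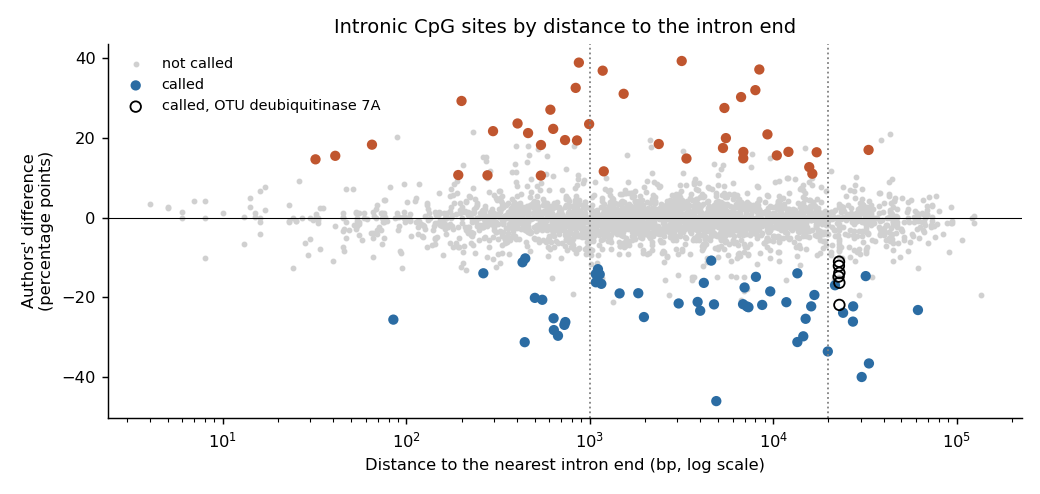
The authors' difference (percentage points) of each of the 2752 intronic sites against its distance to the nearer intron end (bp, log scale). Grey points are not called, blue points are called and negative, orange points are called and positive, open circles are the 6 called sites of OTU deubiquitinase 7A, and dotted lines mark 1000 and 20000 bp; beyond 20000 bp 1 called site is positive.

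Of the 79 genes with a called intronic site, 9 had at least 2, and these held 25 of the 95 calls. In 6 of the 9 genes all calls had 1 sign, and in 3 they had both.

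OTU deubiquitinase 7A (ENSBTAG00000006868), which removes ubiquitin from proteins, had the most calls. Its 19 listed sites lay within 276 bp of chromosome 21, from 30090250 to 30090525, in an intron of 76940 bp, and all were on the plus strand. The authors' deposited table listed every one of them as negative, from -21.9 to -0.29 points with a median of -8.17. Along the stretch 6 sites were called, at -14.8, -12.1, -11.1, -13.9, -16.4 and -21.9 points in the authors' deposited table, and 2 more had q below 0.05 at less than 10 points. A site 3 bp from 1 of the called ones stood at -15.0 points and missed the q threshold (q = 0.0565, authors' deposited table). Sites from -3.15 to -1.70 points lay between the called ones (authors' deposited table), so the size of the difference varied over short distances while the sign did not.

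The 5 tiles over the same stretch, from 30089901 to 30090800, were negative as well. The authors' deposited table placed them between -7.92 and -6.74 points with q from 3.6e-18 down to 5.18e-27. None reached 10 points, so the gene with the most called sites had no called tile. These tiles overlap one another, and each held at least 11 of the 19 sites, so their sign partly follows from shared CpG reads.

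**Figure D3:**
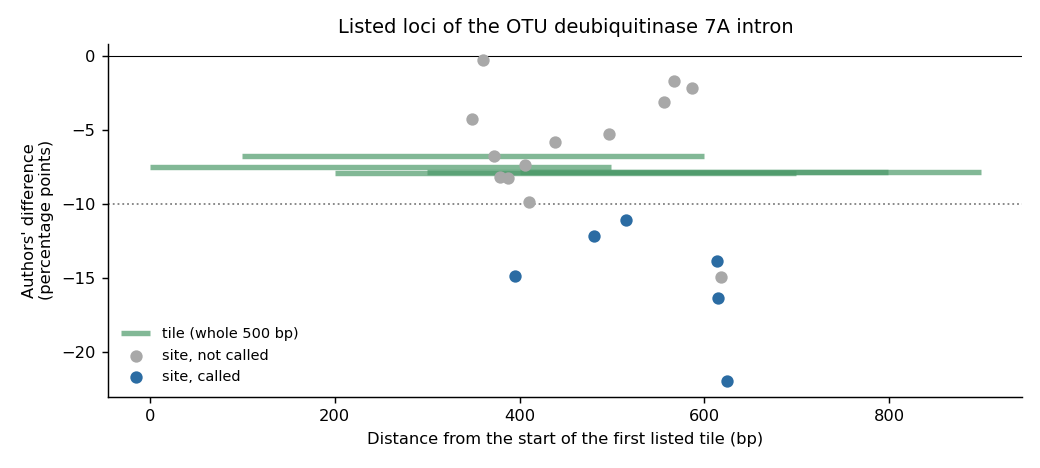
The authors' difference (percentage points) of the listed sites (points) and tiles (green bars, each 500 bp wide) of the OTU deubiquitinase 7A intron, by distance from the start of the first tile (bp). All 19 sites and 5 tiles lie below 0, the 6 called sites (blue) lie below the dotted line at -10 points and the tiles above it.

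ENSBTAG00000054829, a gene of chromosome 1 without a full name, had 27 listed sites in 3 introns, of which 15 were negative and 11 positive. Its 5 called sites were all negative, at -20.6, -25.3, -23.4, -21.6 and -21.2 points in the authors' deposited table, spread over 18714 bp and 2 introns. The median of all its sites was -2.62 points in the authors' deposited table. This gene therefore combined a few large negative sites with many small ones of either sign.

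Of the genes with several calls, 3 had calls of both signs, among them the 2 genes with the most listed sites. Ninein like (ENSBTAG00000023169), a centrosomal protein, had 98 listed sites, the most of any gene, with 46 negative, 51 positive and a median of 0.20 points in the authors' deposited table. Its 2 called sites, 1138 bp apart, had opposite signs, -16.4 and 17.5 points by the authors' deposited table. Zinc finger protein 331 (ENSBTAG00000037710), a Krüppel-type zinc finger protein, had 44 negative and 19 positive sites, with calls at -19.0 and 16.5 points in the authors' deposited table, 5033 bp apart. ATP/GTP binding protein like 1, an enzyme that trims glutamates from tubulin tails, had calls at -22.3 and 11.6 points in different introns, 373194 bp apart (authors' deposited table).

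In the remaining genes with several calls the signs matched. Kinesin family member 26B, a kinesin-like protein, had 2 called sites 14 bp apart at 19.4 and 32.5 points in the authors' deposited table, and was the only one of the 9 whose calls were all positive. Phosphatidylinositol specific phospholipase C X domain containing 2 had 2 listed sites, both called, 4347 bp apart in 1 intron of 33984 bp, at -31.3 and -22.3 points in the authors' deposited table. ENSBTAG00000022931 had calls at -25.6 and -20.2 points and ENSBTAG00000054133 at -14.2 and -13.0 points (authors' deposited table).

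**Figure D4:**
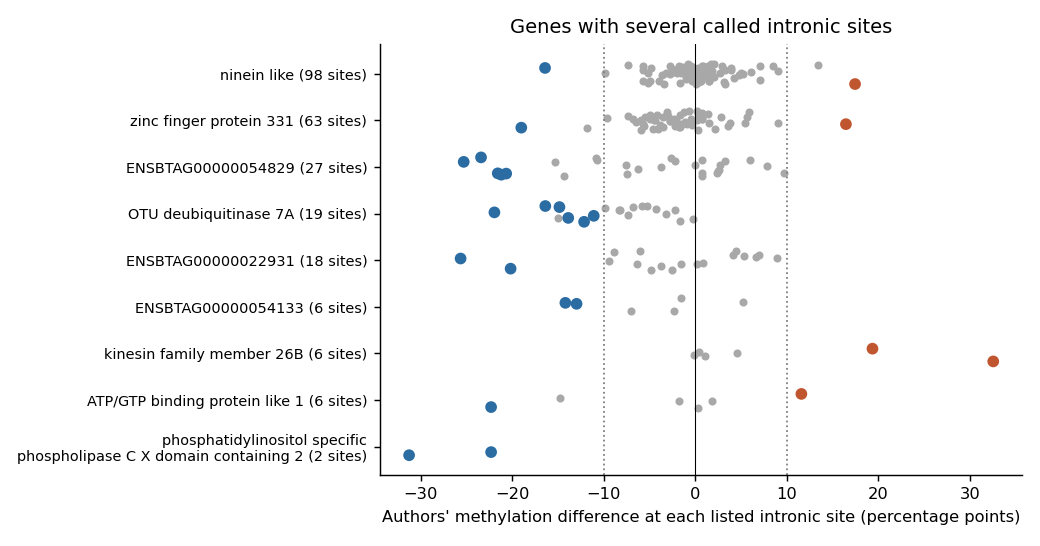
The authors' difference (percentage points) at every listed intronic site of the 9 genes with at least 2 called sites, 1 row per gene with points spread vertically for visibility. Grey points are not called, blue are called and negative, orange are called and positive, dotted lines mark 10 points; the 19 sites of OTU deubiquitinase 7A are all below 0 and those of ninein like lie on both sides.

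Other genes with many listed sites had few calls or none. Collagen type XXVII alpha 1 chain, a fibrillar collagen, had 19 sites between -7.89 and 7.92 points and none called (authors' deposited table). UL16-binding protein 3-like, a ligand of natural killer cells, had 18 sites between -7.84 and 6.70 points, and putative ISG12(a) protein had 17 between -2.02 and 4.04 points, again with none called in the authors' deposited table. Glycine-N-acyltransferase, which conjugates acyl groups to glycine, had 14 sites from -6.22 to 9.62 points without a call (authors' deposited table). ENSBTAG00000054977 had 18 sites with 1 call, at 29.3 points in the authors' deposited table. Gamma-aminobutyric acid type A receptor subunit alpha5 is named here only because its values stood out. Its 5 listed sites were all negative, from -17.6 to -3.23 points, with 4 below a q of 0.05 and 1 called in the authors' deposited table.

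Both strands of a CpG are listed as separate sites. Only 29 intronic CpGs had both strands listed, and 16 of them (55.2%) had the same sign on both, beside 62.7% of 450 other autosomal CpGs. Among these 29, a called site had its partner listed in 2 cases and neither partner was called. In NBAS subunit of NRZ tethering complex, a protein of vesicle transport, the strands stood at -18.5 and -3.13 points, and in ENSBTAG00000050469 at -14.0 and 15.1 points (authors' deposited table).

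Grouped by function, called sites were few in every list of genes, the lists being patterns over the authors' full gene names, which miss genes whose names hold none of the patterns. Each count is to be read against 3.45% over all intronic sites, and no list was tested. The cyclic nucleotide, phospholipase and calcium signalling list had 5 of 46 sites called, all negative in the authors' deposited table. They lay in the phospholipase C and phospholipase A2 genes and the cGMP-dependent kinase named above, and in glycerophosphodiester phosphodiesterase domain-containing protein 4 (-21.8 points, authors' deposited table), a lipid enzyme that does not act on cyclic nucleotides. The ubiquitin list had 9 of 107 called, 6 negative sites that were all those of OTU deubiquitinase 7A and 3 positive ones. The latter were in ubiquitin like modifier activating enzyme 6, parkin and tripartite motif-containing protein 64-like (14.6 points, authors' deposited table). The tripartite motif site lay in a listed tile of the opposite sign, at -5.31 points, and 3 of its 6 neighbours within 500 bp shared its sign (authors' deposited table).

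Neuronal adhesion and axon guidance genes had 5 of 84 sites called, 4 negative and 1 positive. Besides contactin 3 and the dachsous cadherin these were unc-5 netrin receptor C (-22.3 points), EPH receptor A6 (-19.4 points) and cadherin 8 (-17.0 points) in the authors' deposited table, receptors and adhesion molecules of growing axons. Ion channels and neurotransmitter receptors had 2 of 107 called, both negative, in potassium sodium-activated channel subfamily T member 2 (-23.2 points) and in the alpha5 subunit above (authors' deposited table). Transporters had 2 of 87, the second in solute carrier family 23 member 2, a vitamin C carrier, at -14.9 points (authors' deposited table). Cytoskeleton, motor protein and cilium genes had 4 of 108, with 2 in each direction.

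The extracellular matrix and integrin patterns took 77 sites with 3 called, among them ADAM metallopeptidase with thrombospondin type 1 motif 19 at 15.6 points (authors' deposited table). They miss EGF containing fibulin extracellular matrix protein 1, described above, and FRAS1 related extracellular matrix 1, called at -16.3 points in the authors' deposited table, so this count does not cover all matrix genes. GTPase and kinase regulators had 3 of 117, with 2 negative and 1 positive. Zinc finger and homeobox factors had 3 of 145, in basonuclin 2 and zinc finger protein 331. Chromatin genes had 1 of 40, in chromodomain helicase DNA binding protein 7, a nucleosome remodeller, at 18.5 points (authors' deposited table). Reproduction and hormone receptor genes had 1 of 22, pregnancy-associated glycoprotein 14. The WNT and growth factor patterns (27 sites) had none called, and the imprinted gene patterns matched no intronic site. The latter does not show that imprinted genes are absent, since genes with other names are missed.

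The leukocyte patterns, which stand for somatic cells that a semen sample could hold, took 26 sites with none called. They miss leukocyte genes with other names. Among these, a gene listed as BoWC1.1 (WC1) (ENSBTAG00000049861), of a scavenger receptor family of gamma-delta T cells, had a called site at -14.3 points, and WC1.3 molecule (ENSBTAG00000050603) of the same family had an uncalled one at 17.3 points (authors' deposited table). Platelet and endothelial cell adhesion molecule 1 (ENSBTAG00000012066), found on endothelium, platelets and leukocytes, was called at 10.5 points in the authors' deposited table. These genes and FRAS1 related extracellular matrix 1 were added with their values known. The share of leukocytes in each sample was not measured, as no levels per sample were used.

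Intronic tiles were concentrated in far fewer genes than the sites. The 683 tiles lay in 182 introns of 158 genes on 25 chromosomes, and overlapping or adjoining tiles merged into 199 regions. Zinc finger protein 331, ENSBTAG00000052622 and phosphodiesterase 5A together held 243 tiles (35.6%). Every tile started inside its intron, but 192 ran past the intron's end and 491 lay wholly inside. Overlap also showed in the values, with 42 tiles sharing difference and p with another tile.

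The tile values leaned negative. The authors' deposited table lists 477 intronic tiles as negative and 206 as positive, with a median of -0.82 points beside -0.84 over all autosomal tiles. Without the 3 genes just named the median of the other 440 tiles was -0.27 points, and with 1 value per gene it was -0.12 points (authors' deposited table). A q below 0.05 was the rule rather than the exception, in 483 tiles (70.7%, against 71.0% of autosomal tiles), and 334 of these differed by less than 5 points in the authors' deposited table. All 124 tiles at 5 to 10 points had q below 0.05, but only 47 of the 415 sites of that size did (authors' deposited table). In 31 of the tiles with q below 0.05 the authors' unadjusted p was 0.05 or more. With no value per sample, a small q of a tile was not read as a sign that samples of a group were alike.

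Large tile differences were few and all negative. A total of 25 tiles (3.66%) were called in the authors' deposited table, against 2.34% of autosomal tiles. All 25 were negative, and over all autosomal tiles 2.17% were called negative and 0.167% positive. They formed 10 merged regions in 5 genes, and 8 calls were left without the 3 genes that hold the most tiles.

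ENSBTAG00000052622, a gene of chromosome 14 without a full name, held 14 of the calls. Its 77 tiles spanned 19600 bp, from 13771901 to 13791500, in 2 introns, and all were negative, from -15.1 to -1.64 points with a median of -7.45 (authors' deposited table). All 77 had q below 0.05. The tiles formed 9 separate regions, with no listed intronic tile between them, and the called ones fell into 5 of these. Tiles with another annotation were not looked for in the gaps. Of its 11 listed sites 9 were negative, and the only called one, at -14.0 points in the authors' deposited table, lay in a called tile of -10.6 points.

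Phosphodiesterase 5A (ENSBTAG00000024888), which breaks down cyclic GMP and is the target of sildenafil, had 70 tiles over 14400 bp of 1 intron of 27884 bp on chromosome 6. They formed 5 separate regions with no listed intronic tile between them. Every tile was negative, from -10.3 to -0.084 points with a median of -4.33, 69 had q below 0.05 and 3 were called (authors' deposited table). A single listed site fell inside this stretch, at 2.21 points and uncalled, and the 4 tiles that hold it stood between -7.79 and -5.80 points (authors' deposited table). The gene's other sites, at -3.46 and 1.45 points in the authors' deposited table, lay in other introns.

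Septin 10 (ENSBTAG00000022461), a filament-forming GTP-binding protein, had 11 tiles in 1 run of 1500 bp on chromosome 11, from 44298601 to 44300100. The first tile started 199 bp inside an intron of 13135 bp. The authors' deposited table gave values from -12.4 to -8.18 points, 3 of them called, and a median of -9.65. No intronic site of this gene was listed, so the run has no single-CpG values beside it.

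The remaining called tiles were in ENSBTAG00000054829 and carbonic anhydrase 10. In the former, 9 tiles between 646401 and 649100 of chromosome 1 ran from -12.1 to -5.28 points with 4 called (authors' deposited table). The called tiles held none of the 5 called sites of that gene. Carbonic anhydrase 10, a carbonic anhydrase-related protein without enzyme activity, had 4 overlapping tiles at -10.02, -8.84, -9.73 and -9.51 points in an intron of 133995 bp on chromosome 19 in the authors' deposited table. Only the first was called, although the values differed by little more than 1 point. Its single site, in another intron, stood at -5.64 points (authors' deposited table).

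**Figure D5:**
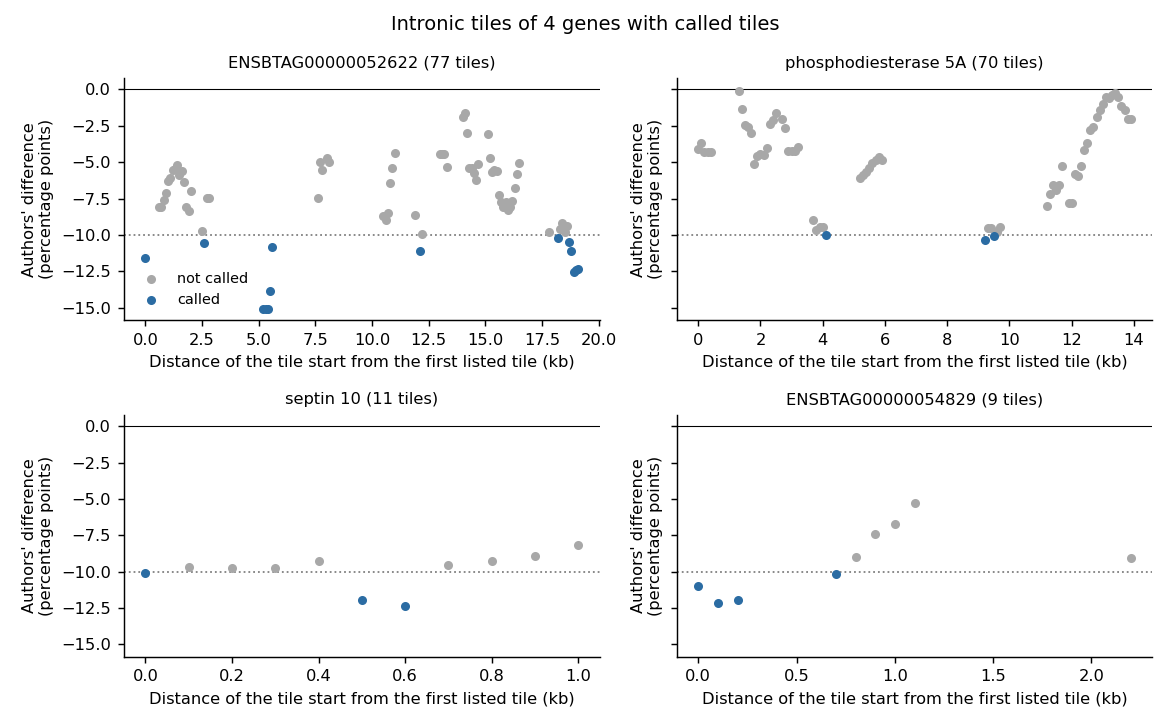
The authors' difference (percentage points) of each listed intronic tile of 4 genes, by distance of the tile start from the first listed tile (kb); grey points are not called and blue points are called. Every tile of these genes lies below 0, and called tiles alternate with tiles short of the dotted line at -10 points.

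Several genes had tiles just short of the call, among which the testis protein and the G protein subunit below were picked for their values. Between 5 and 10 points in either direction stood 124 tiles of 17 genes, 123 of them negative, in the authors' deposited table. Spermatogenesis associated 1 (ENSBTAG00000020010), named for its expression in the testis, had 4 tiles on chromosome 3 from 59558301, at -9.69, -9.31, -6.93 and -6.82 points, all with q below 0.05 (authors' deposited table). Histamine receptor H2, a receptor coupled to cyclic AMP, had tiles at -9.61 and -8.29 points and a site at -5.83 points in the authors' deposited table. G protein subunit alpha q, which activates phospholipase C beta, had 3 tiles from -7.79 to -6.21 points, and sortilin related VPS10 domain containing receptor 3 had 3 tiles from -8.02 to -6.32 points (authors' deposited table). Trophoblast Kunitz domain protein 1, a protease inhibitor of the trophoblast, had 7 tiles from -5.94 to -4.21 points and both strands of 1 CpG at -12.1 and -1.003 points in the authors' deposited table.

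The genes with many tile regions leaned either way. Zinc finger protein 331, which leaned negative, had 96 tiles in 10 regions, 74 negative and 22 positive, between -4.58 and 3.47 points (authors' deposited table). Ninein like leaned positive, with 24 tiles in 8 regions, 7 negative and 17 positive, from -0.60 to 3.27 points there (authors' deposited table). ENSBTAG00000051364 on chromosome 2 leaned positive in the authors' deposited table, with 19 of 23 tiles above 0, a median of 1.39 points and q below 0.05 in all 23. Among the 20 genes with 5 or more tiles, 8 had only negative tiles and none had only positive ones. The corresponding count among the 57 genes with 5 or more sites was 4 and none. Over all autosomal loci 70.3% of tiles and 57.9% of sites other than 0 were negative (authors' deposited table). Overlapping tiles also share CpG sites, so these counts were not read as a property of the genes.

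The tables met in few places. Sites of chromosomes 2, 3 and 4 were not analysed here, so tile genes on them, such as spermatogenesis associated 1 and ENSBTAG00000051364, have no sites beside their tiles. Intronic loci of 48 genes were listed in both, and 133 of the 683 tiles, in 40 regions of 24 genes, held a listed intronic site. The tile had the sign of the mean of its sites in 102 of these (76.7%), a figure that partly follows from their sharing CpG reads. Called loci in both tables were present in 2 genes, ENSBTAG00000054829 and ENSBTAG00000052622.

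The authors' q-values ran chromosome by chromosome, which touches the calls above. Ordered by p, the listed q never decreased within any chromosome of either table (0 reversals in 24 chromosomes for sites and 27 for tiles, at a tolerance of 1e-06), but did so 7536 and 2265 times over the whole tables. On autosomes the largest p with q below 0.05 was 0.000113 for sites on chromosome 15 and 0.00756 on chromosome 14 in the authors' deposited table. The intronic site called at the largest p lay in ENSBTAG00000050469 on chromosome 14, with -14.0 points, p = 0.00756 and q = 0.0477 in the authors' deposited table. In all, 25 uncalled intronic sites of 10 points or more had a smaller p than this called site. No intronic tile of 10 points or more went uncalled, so the tile calls were not touched. Adjusting all listed p-values of the table together by the Benjamini-Hochberg method gave 97 called intronic sites, 91 of them shared with the authors' 95.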

How the data were processed

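Bull sperm samples (12, of which 6 low and 6 high daughter fertility) were compared by the authors, who deposited 2 tables with 1 methylation difference in percentage points, 1 p-value and 1 q-value per locus, and the closest annotated feature with its distance in bp. Trimmomatic, Bismark, methylKit and the build ARS-UCD1.2 are named per the submitters' processing notes, without versions or settings. Filters, the test and the adjustment behind the q-values are not given in the sources used here. Intronic autosomal loci were taken by annotation, counted by sign and by call (q below 0.05, at least 10 points), and set beside all autosomal loci. No new test between groups was possible without values per sample. Members, the 14 gene lists, the distance ranges and the rule for named genes were chosen with earlier results of these data known. That rule takes the 12 largest called differences of each sign, genes with 2 or more called sites, the 10 genes with most sites or tile regions, every gene with a called tile, up to 4 called genes per list and 10 genes in both tables by tile difference. Not every such gene is described, and some are not reported here. Chromosomes 2, 3, 4, 12, 23 and 27 of the site table and 12, 23 and 27 of the tile table were not analysed here, nor were sequences. Computation used Python 3.11.15, pandas 2.3.3, NumPy 2.4.6 and SciPy 1.17.1, and the adjustment and merging steps were tested on simulated data. Alternatives changed the thresholds, the adjustment, the loci counted per CpG, gene or region, and the genes or chromosomes included.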

Additional observations from a re-analysis of the deposited data

How the results depend on the processing

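Of 47 alternative values for 8 results, 33 stayed within 1.5 times the count, or within the interval of the share or median, and 14 did not. No sign turned. The 95 called sites became 49 at q below 0.01 and also 49 at 20 points or more. The 9 genes with several called sites became 5 and 3 under those settings. The 25 called tiles became 149 at 5 points or more, 0 at 20 points, 11 without chromosome 14, 7 in genes with a full name, 10 as merged regions and 8 without the 3 genes with the most tiles. The last setting, the adjustment within chromosomes and the settings without OTU deubiquitinase 7A were chosen after seeing the data. The median site difference was -7.37 points with q below 0.05, and the median tile difference was -2.38 points with q below 0.05, -0.12 with 1 value per gene and -0.27 without the 3 genes. These shifts follow from the loci each setting leaves in. Benjamini-Hochberg values within each chromosome called 89 sites, all among the 95, and the same 25 tiles. No sample could be left out and no paired analysis was possible because the tables hold no values per sample. Depth limits every value in a way that cannot be stated here, since coverage per locus is unknown.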

Other observations

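Peroxisomal biogenesis factor 5 like, a relative of the peroxisomal import receptor that binds pacemaker channels in neurons, had 10 overlapping intronic tiles on chromosome 1, all negative, from -3.57 to -1.96 points in the authors' deposited table. All 10 had q below 0.05. Frizzled class receptor 3, a WNT receptor, had 7 tiles, again all negative and all with q below 0.05, from -1.78 to -0.76 points (authors' deposited table). The 4 intronic tiles of synaptotagmin 11, a vesicle protein, were all positive, from 0.51 to 0.65 points, with q below 0.05 in the authors' deposited table. In each of these genes the tiles overlap within 1 merged region and share CpG sites, so they are not separate values that agree. Over all autosomal tiles 71.0% had q below 0.05 and 70.3% were negative (authors' deposited table). These genes were chosen after their values were seen.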
